A study of Mus musculus with 6 samples.

Results

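The genes for the nuclear-encoded subunits of the respiratory chain and of ATP synthase were examined in a map of histone H3 acetylated at lysine 56 (H3K56ac). Members were taken by name from the protein-coding genes of GENCODE M21 on mm10. Names starting with Ndufa, Ndufb, Ndufc, Ndufs, Ndufv, Uqcr, Cox4, Cox5, Cox6, Cox7, Cox8 or Atp5 were included, together with Sdha, Sdhb, Sdhc and Sdhd. This rule gave 94 gene records out of 21938 protein-coding genes, under 93 names, since Atp5o was annotated as 2 records. Of these, 36 belonged to complex I, 8 were complex I assembly factors named Ndufaf, 4 belonged to complex II, 8 to complex III, 20 to complex IV and 18 to ATP synthase. The rule used names only and no measured value.

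The respiratory chain passes electrons from NADH and succinate through complexes I, II and III to complex IV, which reduces oxygen. Protons pumped on the way drive ATP synthase in the inner mitochondrial membrane. Most subunits are encoded in the nucleus and needed in nearly every cell type, while several complex IV subunits also have a second isoform gene that is used mainly in striated muscle, lung or testis or under hypoxia. Lysine 56 lies in the globular core of histone H3 near the point where DNA enters and leaves the nucleosome, and its acetylation is found at active promoters and enhancers.

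V6.5 mouse embryonic stem cells (mESCs) kept on feeder cells were infected with a lentivirus for a scrambled shRNA (Scramble) or an shRNA against Sirt6 (Sirt6KD), the gene of a deacetylase of this residue, and were selected with puromycin. ChIP-seq comprised 2 H3K56ac libraries and 1 input library for Scramble and the same numbers for Sirt6KD, which makes 6 libraries in all. The deposited table was 1 merged set of 11106 peak positions, with no value per library or group, no peak height and no read count. No effect of Sirt6 knockdown can therefore be read from it, and all values below describe where peaks lay in the pooled set. The study lists more peaks for each Sirt6KD library than for each Scramble library. Some merged positions may thus come from Sirt6KD only, and the shares below need not be those of cells with Sirt6 intact. Of 5 stem cell genes (Pou5f1, Nanog, Sox2, Esrrb and Zfp42) all 5 had part of a peak no more than 1 kb from a start, against 0 of 5 muscle genes (Myod1, Myog, Ckm, Acta1 and Myh1). By the same rule 35.7% of all protein-coding genes (7836 of 21938) had one, so counts out of 5 say little. Chromatin came from whole cultures, so a mark in fewer cells and a weaker mark per cell cannot be told apart, and the share of feeder cells in the chromatin was not tested.

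A gene was counted as having a promoter peak when the midpoint of a peak lay within 1 kb of any of its annotated transcript starts. By this rule 79 of the 94 member genes (84.0%, Wilson 95% interval 75.3 to 90.1) had a promoter peak, against 33.9% of all protein-coding genes (7430 of 21938). If a single base of the peak inside this distance was enough, the count was 80 of 94 (85.1%), against 35.7% of all genes. The background share depended on CpG content. A gene was called CpG-rich when the observed over expected CpG ratio within 500 bp of its 5′ end was above 0.6. Among CpG-rich members 70 of 74 (94.6%, 86.9 to 97.9) had a promoter peak, against 57.6% of all CpG-rich genes. Among CpG-poor members 9 of 20 (45.0%, 25.8 to 65.8) had one, against 13.7% of all CpG-poor genes. When a gene was called CpG-rich by its best start, 73 of 78 members (93.6%) had a peak, against 56.4% of all such genes. The 3 members on the X chromosome, Ndufa1, Ndufb11 and Cox7b, all had a promoter peak (interval 43.9 to 100), against 14.3% of X-linked protein-coding genes. Of these 3 members 2 were CpG-rich, and the X-linked share was not split by CpG content. No test was run on these shares, because the members were chosen as a family and many share a promoter with a neighbour. The intervals cover counting error over genes only.

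By complex, the share was 86.1% for complex I (31 of 36, interval 71.3 to 93.9), 65.0% for complex IV (13 of 20, 43.3 to 81.9) and 83.3% for ATP synthase (15 of 18, 60.8 to 94.2). The 4 genes of complex II, the 8 of complex III and the 8 Ndufaf factors all had one, with lower limits of 51.0%, 67.6% and 67.6%. All 6 intervals overlapped, and every complex lay above the share of all protein-coding genes. Complex IV was the lowest, and its 7 genes without a peak were 6 tissue-restricted isoforms and Ndufa4l2. The 12 complex IV genes that are not restricted all had a promoter peak (75.8 to 100). Without the 7 tissue-restricted isoforms and Ndufa4l2, 78 of the remaining 86 members (90.7%) had one.

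**Figure D1:**
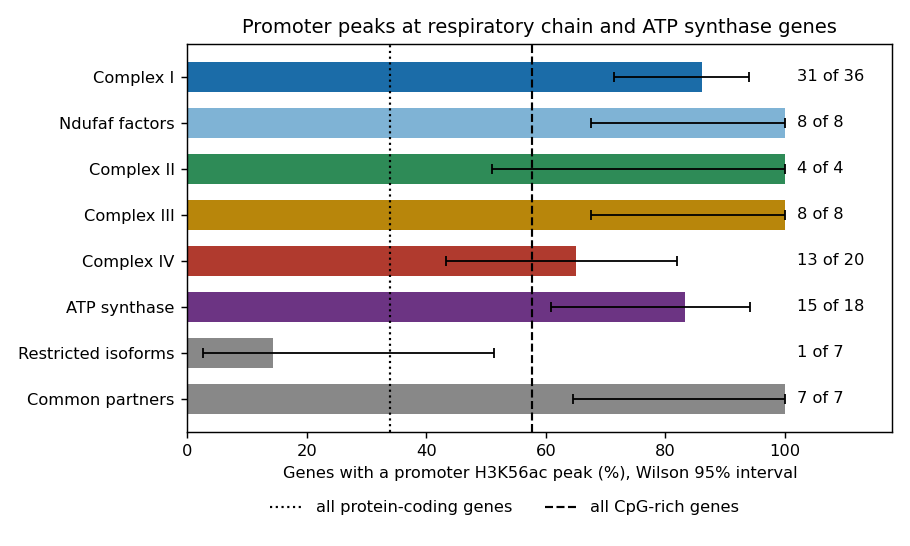
Share of genes with a promoter H3K56ac peak (x axis, percent) for each complex, for the 7 tissue-restricted isoforms and for the 7 common partner genes (y axis), with Wilson 95% intervals as error bars and the number of genes at the right. The dotted line is the share of all protein-coding genes (33.9%) and the dashed line that of all CpG-rich genes (57.6%), and of all bars only that of the restricted isoforms (14.3%) ends left of the dotted line.

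Within complex IV, the isoform pairs were compared. Of 7 tissue-restricted isoforms only Cox6b2 had a promoter peak (14.3%, 2.57 to 51.3), while all 7 common partners, Ndufa4 included, had one (100%, 64.6 to 100). The sides were not matched gene for gene. Ndufa4l2, the relative of Ndufa4, was left out of the restricted side, and Cox8a is the partner of both Cox8b and Cox8c. With Ndufa4l2 the restricted side was 1 of 8 (12.5%, 2.24 to 47.1). All 7 restricted genes were CpG-poor, and their share is near the 13.7% of all CpG-poor genes, while 6 of the 7 common partners were CpG-rich, a class in which 57.6% of all genes had a peak. The restricted genes Cox6a2, Cox7a1 and Cox8b are the heart and skeletal muscle forms of Cox6a1, Cox7a2 and Cox8a. The nearest peak base lay 30363 bp from Cox6a2, 9989 bp from Cox7a1 and 17376 bp from Cox8b, in or near genes that are not members (Armc5, Capns1 and Psmd13). Cox4i2, the form linked to lung and hypoxia, was 16806 bp from the nearest peak, which was centred in an exon of Id1. The testis forms Cox7b2 and Cox8c were 618997 bp and 21545 bp from a peak. Ndufa4l2, the hypoxia-linked relative of Ndufa4, had no promoter peak either, and its nearest peak base lay 5606 bp away, in a peak centred in Shmt2.

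The common partners carried peaks over their starts. Cox4i1 had a peak of 3031 bp (chr8:120666390-120669420), Cox6a1 of 1757 bp (chr5:115347978-115349734) and Cox6b1 of 973 bp (chr7:30625449-30626421). Peaks of 2046 bp covered a start of Cox7a2 (chr9:79758408-79760453), of 770 bp one of Cox7b (chrX:106015672-106016441) and of 1290 bp one of Cox8a (chr19:7216322-7217611). The peak of Ndufa4 was 2385 bp wide (chr6:11906075-11908459). Their midpoints lay in exons or introns of the genes themselves, apart from that of Cox4i1, which lay upstream in Emc8, a subunit gene of the ER membrane protein complex. Cox6b2, the testis form of Cox6b1, was the exception among the restricted genes. Its peak was 2005 bp wide (chr7:4751274-4753278), wider than that of Cox6b1, spanned the start and was centred in a Cox6b2 exon.

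The pairs also differed in promoter sequence, a feature the choice of pairs did not use. The CpG ratio was at most 0.6 for each of the 7 restricted genes, so 0 of 7 were CpG-rich, against 6 of 7 common partners. The median ratio was 0.379 for the restricted genes and 0.777 for the common ones, beside 0.722 over all members and 0.552 over all protein-coding genes. Cox7b, with a ratio of 0.48, was the common gene below the limit, and it had a peak. Cox6b2 had a ratio of 0.43, below those of Cox8c (0.46) and Cox7b2 (0.47), which had none. The CpG ratio and the presence of a peak therefore did not run in parallel in every gene.

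The sequences just upstream of 3 pairs are printed to show this difference, taken from RefSeq promoters on GRCm38.p6 (the assembly behind mm10), read 5′ to 3′ towards the gene and ending at the base before the outermost GENCODE start. Capitals mark each CpG. The heart and muscle gene Cox7a1, chr7:30183921-30184143 (plus strand), held 3 CpG, and its partner Cox7a2, chr9:79759879-79760103 (minus strand), held 12. The muscle gene Cox8b, chr7:140900447-140900696 (minus strand), held 1, and Cox8a, chr19:7217617-7217866 (minus strand), held 11. The testis gene Cox6b2, chr7:4753095-4753344 (minus strand), held 8, and Cox6b1, chr7:30626152-30626364 (minus strand), held 10.
Cox7a1: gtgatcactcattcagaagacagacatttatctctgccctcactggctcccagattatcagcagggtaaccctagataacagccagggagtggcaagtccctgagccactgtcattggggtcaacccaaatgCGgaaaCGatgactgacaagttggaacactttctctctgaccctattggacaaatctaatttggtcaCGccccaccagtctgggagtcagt
Cox7a2: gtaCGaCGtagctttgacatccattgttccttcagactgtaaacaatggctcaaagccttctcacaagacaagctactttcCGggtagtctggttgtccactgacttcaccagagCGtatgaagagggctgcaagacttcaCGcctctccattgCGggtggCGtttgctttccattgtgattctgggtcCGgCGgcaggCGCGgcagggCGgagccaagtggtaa
Cox8b: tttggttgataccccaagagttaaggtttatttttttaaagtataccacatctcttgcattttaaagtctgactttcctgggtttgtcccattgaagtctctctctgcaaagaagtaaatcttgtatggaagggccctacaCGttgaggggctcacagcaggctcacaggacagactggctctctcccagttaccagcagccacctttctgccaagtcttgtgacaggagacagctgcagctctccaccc
Cox8a: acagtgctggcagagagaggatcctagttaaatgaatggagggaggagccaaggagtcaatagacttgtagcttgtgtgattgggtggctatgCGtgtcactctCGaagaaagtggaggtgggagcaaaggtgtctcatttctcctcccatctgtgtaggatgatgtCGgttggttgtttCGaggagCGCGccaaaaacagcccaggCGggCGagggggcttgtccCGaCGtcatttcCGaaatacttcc
Cox6b2: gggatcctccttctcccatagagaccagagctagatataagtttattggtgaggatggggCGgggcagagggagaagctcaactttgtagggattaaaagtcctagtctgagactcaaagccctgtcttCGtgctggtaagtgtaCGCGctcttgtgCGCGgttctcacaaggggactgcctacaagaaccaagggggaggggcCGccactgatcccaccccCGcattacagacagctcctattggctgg
Cox6b1: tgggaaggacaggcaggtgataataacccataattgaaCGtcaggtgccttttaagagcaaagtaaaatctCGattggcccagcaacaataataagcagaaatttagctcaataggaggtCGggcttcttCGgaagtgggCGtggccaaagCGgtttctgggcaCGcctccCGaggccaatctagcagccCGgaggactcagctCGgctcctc

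**Figure D2:**
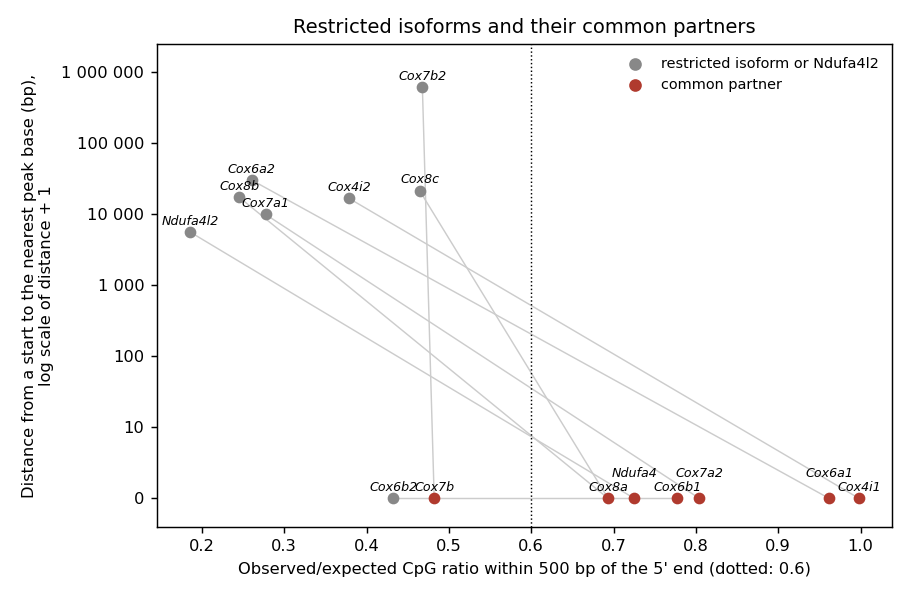
Observed over expected CpG ratio within 500 bp of the 5′ end (x axis, dotted line at 0.6) and distance from a start to the nearest peak base (y axis, bp, log scale of the distance plus 1) for each restricted isoform and Ndufa4l2 (grey) and its common partner (red), with grey lines joining pairs. All common partners lie at 0 bp, and Cox6b2 is the one restricted gene at 0 bp.

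Complex I, which oxidises NADH, had a promoter peak at 31 of 36 genes. Ndufs1, the large iron-sulfur subunit, had a peak of 3688 bp (chr1:63175377-63179064) and Ndufv1, the FMN-binding subunit, one of 2090 bp. The core subunit genes Ndufv2 and Ndufs3 had peaks of 1921 bp and 1688 bp. Ndufs7 and Ndufs8, both of which encode iron-sulfur subunits near the ubiquinone site, had none. The nearest peak base lay 8906 bp from Ndufs7, in a peak centred in a Dazap1 intron, and 5352 bp from Ndufs8, in one centred in Tcirg1. The Ndufs7 promoter had a CpG ratio of 0.96, one of the 4 CpG-rich member promoters without a promoter peak.

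The other complex I genes without a promoter peak were accessory subunits. For Ndufa6 the nearest peak base lay 4113 bp away, in a peak centred in an intron of Smdt1. For Ndufb5 it lay 27048 bp away, in a peak centred in an exon of Actl6a. Ndufb10 was close to the limit rather than far from a peak. A peak of 5922 bp (chr17:24718514-24724435), centred in an exon of the ribosomal protein gene Rps2, covered a start of Ndufb10, but its midpoint lay 1175 bp from the nearest Ndufb10 start. This gene is the difference between 79 and 80 members under the 2 rules. Just inside the limit were Atp5a1, with a midpoint 881 bp from a start, and Ndufaf3, with 865 bp.

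The narrowest promoter peaks of complex I lay at Ndufa1 with 405 bp and Ndufs5 with 473 bp, apart from a second peak of 298 bp at Ndufb11. Ndufb11 and Ndufv3 were the 2 members with 2 promoter peaks each. The Ndufaf factors, which help to build complex I without being part of it, ranged most widely. Ndufaf6 had a peak of 240 bp in its intron (chr4:11075522-11075761), the narrowest of any member, and Ndufaf3 had the widest at 4926 bp (chr9:108565837-108570762), which also held a start of Dalrd3.

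Complex II, which feeds electrons from succinate, is the only complex of the chain encoded wholly in the nucleus, and its 4 genes all had a peak. The peak of Sdha, the FAD-binding subunit, was 1968 bp wide (chr13:74349178-74351145), with a midpoint 4 bp upstream of a start. Sdhb, the iron-sulfur subunit, had a narrower peak of 823 bp (chr4:140961423-140962245) that began 20 bp downstream of the nearest start. The membrane anchors Sdhc and Sdhd had peaks of 2150 bp (chr1:171149546-171151695) and 2426 bp (chr9:50602485-50604910). The peaks of Sdha and Sdhd were also promoter peaks of the divergent genes Ccdc127 and Timm8b, which start 29 and 98 bp away. Sdhb shared its peak with no other gene.

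Complex III, which passes electrons from ubiquinol to cytochrome c, had peaks at all 8 genes that the name rule took in. Among these the widest was that of Uqcrq at 2585 bp and the narrowest that of Uqcrfs1, the Rieske iron-sulfur subunit, at 880 bp. Cyc1, the complex III cytochrome gene, lies outside the name rule and had a narrower peak of 396 bp. The Uqcrfs1 peak started 267 bp downstream of the nearest start, and this gene had the highest CpG ratio of all members (1.04). Uqcrb shared its peak with Gm10767, 37 bp away, and Uqcrq with Gdf9, 192 bp away. In complex IV the widest peak was that of Cox4i1 (3031 bp) and the narrowest that of Cox7c (562 bp).

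In ATP synthase all 5 genes of the F1 head and central stalk had a promoter peak, with widths from 913 bp at Atp5d to 3221 bp at Atp5a1, the alpha subunit. The narrowest peak among ATP synthase genes was that of Atp5s at 531 bp. Of the 3 genes for the c subunit of the rotor ring, Atp5g1 (2752 bp) and Atp5g3 (2172 bp) had a peak and Atp5g2 had none. The nearest peak base to Atp5g2 lay 20041 bp away, in a peak centred outside protein-coding genes. Of the 4 peripheral stalk genes Atp5f1, the b subunit, had none, and its nearest peak base lay 267024 bp away, although its divergent neighbour Wdr77 starts 93 bp from it. All 4 small membrane subunits had one. These groups within ATP synthase were drawn after the values were seen. The second Atp5o record (chr16:91684398-91926982) had no promoter peak and lay 3298 bp from the peak of 1704 bp at the first record.

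Within 500 bp of the 5′ end, all stretches of 75 bases, the read length given in the methods, were unique in the genome for 85 of 94 members. The lowest value was 84.5% at Ndufb4, which had a peak, and the lowest among the 15 members without a promoter peak was 99.5%. The absence of a merged peak does not show that the mark was absent, since the merged positions hold no read counts.

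The 81 distinct promoter peaks of members had a median width of 1688 bp (quartiles 1024 and 2172 bp, range 240 to 4926 bp), against 1155 bp (697 and 1997 bp) over all 6869 promoter peaks of protein-coding genes. Over promoter peaks of CpG-rich genes the median was 1241 bp (722 and 2084 bp). Peaks of at least 3 kb had similar shares in members and in all promoter peaks, 6 of 81 (7.41%) against 7.15%. Median widths were 1263 bp for complex I (33 peaks), 1419.5 bp for the Ndufaf factors (8), 2059 bp for complex II (4), 1525 bp for complex III (8), 1310 bp for complex IV (13) and 2018 bp for ATP synthase (15). The range of widths within each complex was larger than the difference between any of these medians. Shared peaks were wider than unshared ones. Of member peaks, 33 of 81 (40.7%) were promoter peaks of another gene too, against 14.1% of all promoter peaks. Shared member peaks had a median of 1968 bp and unshared ones 1277 bp, beside 1866 and 1076 bp over all promoter peaks. Over promoter peaks of CpG-rich genes these medians were 1906.5 and 1126 bp.

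The 6 member peaks of at least 3 kb each held starts of at least 1 other gene. Besides Ndufaf3 and Ndufs1, they lay at Ndufa13 (3588 bp, with Tssk6 and Yjefn3), Ndufa7 (3531 bp, with Rps28), Atp5a1 (3221 bp, with Haus1) and Cox4i1 (3031 bp, with Emc8 and Gm27021). In this count a start only had to lie inside the peak, which differs from the midpoint rule used for shared peaks. No such count was made over all promoter peaks of at least 3 kb, so it has no background share. The partner of Ndufs1 is Eef1b2, a translation elongation factor gene, and Rps28 encodes a ribosomal protein. Cytosolic ribosomal protein genes as a family had a median promoter peak width of 2947 bp, with 33 of 67 peaks of at least 3 kb. Mitochondrial ribosomal protein genes (1224 bp, 74 peaks) and proteasome subunit genes (1414 bp, 35 peaks) were nearer to the respiratory genes. Peaks shared with another gene made up 17.9% in cytosolic ribosomal, 37.8% in mitochondrial ribosomal and 11.4% in proteasome genes, beside 40.7% in members. The shares of genes with a promoter peak were 84.4% (65 of 77), 88.5% (69 of 78) and 87.5% (35 of 40) in these 3 families, all inside the interval of the respiratory genes.

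**Figure D3:**
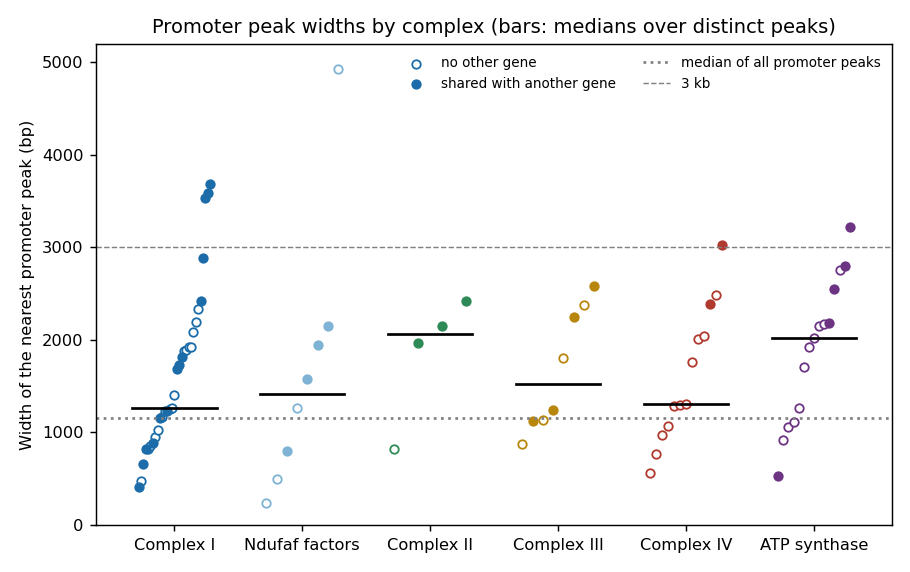
Width in bp (y axis) of the promoter peak nearest to a start of each member gene with one, by complex (x axis), filled where the peak is also a promoter peak of another gene and open where it is not. Black bars are medians over distinct peaks, the dotted line is the median of all promoter peaks (1155 bp) and the dashed line marks 3 kb, above which 6 peaks lie.

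Divergent gene pairs, in which a neighbour on the other strand starts upstream within 1 kb, were frequent in this family. They made up 34 of 94 members (36.2%), against 11.0% of all protein-coding genes and 19.0% of CpG-rich ones. A promoter peak was present at 33 of the 34 (97.1%, against 73.0% of all divergent genes) and at 46 of the other 60 (76.7%, against 29.0%). The exception was Atp5f1. The closest starts were those of Ndufs1 and Eef1b2 and of Ndufb11 and Rbm10, both 3 bp apart, followed by Ndufa7 and Rps28 at 10 bp. In ATP synthase, Atp5a1 and Haus1 started 70 bp apart and shared a peak. Ndufaf7 and Cebpz started 70 bp apart, and Ndufaf5 and Esf1 85 bp. In complex IV, Cox4i1 and Emc8 were 101 bp apart and Ndufa4 and Phf14 were 312 bp apart. Atp5j, for coupling factor 6 of the peripheral stalk, shared a peak of 2556 bp (chr16:84833881-84836436) with Gabpa, whose product is the DNA-binding part of an ETS-family activator of respiratory genes, and their starts were 93 bp apart. In such pairs a peak cannot be assigned to either gene. Among the 57 members with no other start within 1 kb, 44 (77.2%, 64.8 to 86.2) had a promoter peak. The same share was not taken over all genes, so this count has no background beside it.

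**Figure D4:**
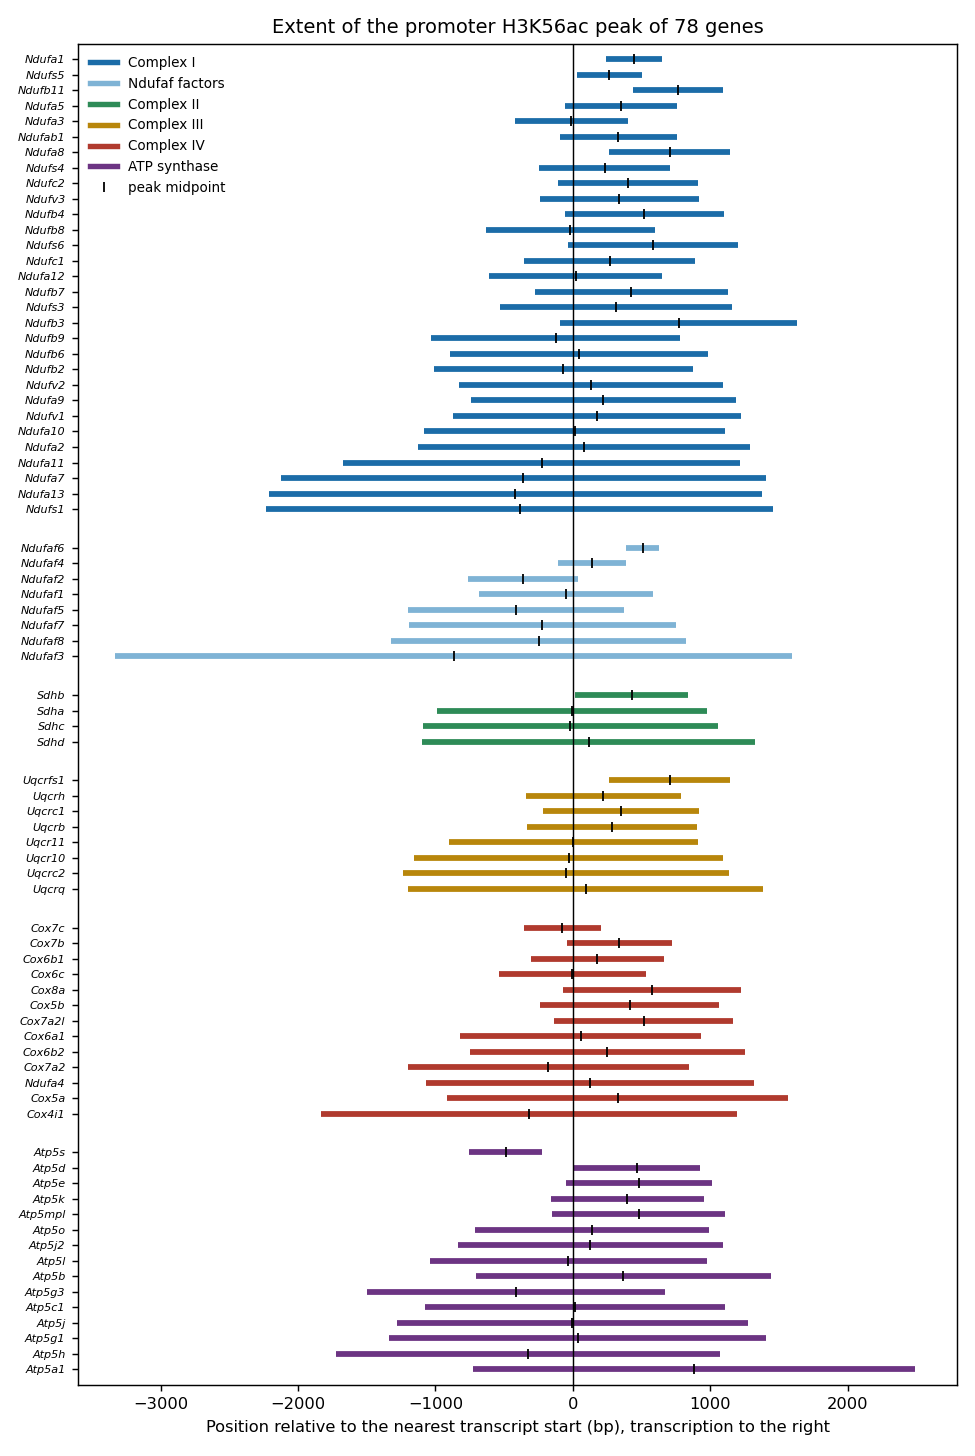
Extent of the promoter peak (horizontal bars) relative to the nearest transcript start (x axis, bp, transcription to the right) for 78 of the 79 genes with one (y axis), coloured by complex and ordered by width, with a tick at each peak midpoint. Most peaks cover this nearest start, which was chosen by its distance to the peak midpoint, and reach further downstream than upstream. In 9 genes the peak does not cover it.

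Peaks lay mostly over and downstream of the start. Over the 79 genes the midpoint was a median of 268 bp from the nearest start (quartiles 89.5 and 417 bp). This was close to the 277.5 bp (103 and 489 bp) over all genes with a promoter peak. The midpoint lay downstream in 51 (64.6%, against 61.2% of all genes with a promoter peak). The reach was taken from the 5′ end of the gene instead of the nearest start. Its median was 341 bp upstream and 1178 bp downstream, against 433.5 and 1084.5 bp over all genes. The 5′ end of the gene was inside the peak for 59 of the 79 genes (74.7%), against 55.9% of all genes with a promoter peak. The nearest start was chosen by its distance to the midpoint, which favours a start inside the peak. It was inside for 70 genes, and this was not counted over all genes. In 8 of the other 9 the peak lay downstream (Atp5d, Ndufa1, Ndufa8, Ndufb11, Ndufs5, Ndufaf6, Sdhb and Uqcrfs1), and in Atp5s it lay upstream. The midpoint was downstream in 34 of 46 members without a divergent neighbour (73.9%) and in 17 of 33 with one (51.5%), beside 67.1% and 42.2% over all genes. Measured from the 5′ end, coverage of members by peaks was 62.8% at the 5′ end itself and highest at 78.7%, 450 bp downstream. At 1 kb upstream it was 20.2% and at 1 kb downstream 57.4%. CpG-rich genes as a whole reached 44.8%, 550 bp downstream, and all genes 24.9%.

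**Figure D5:**
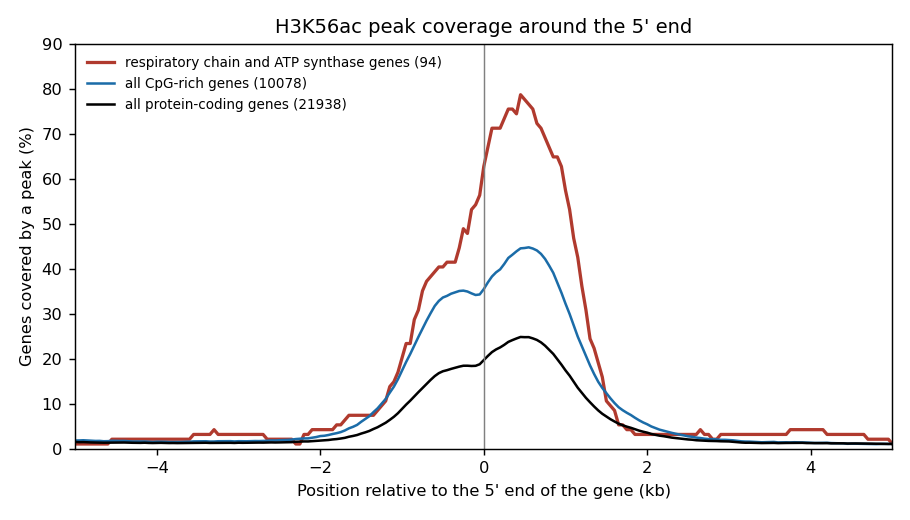
Percent of genes whose position at a given distance from the 5′ end (x axis, kb) is covered by a peak (y axis), for the 94 member genes, all CpG-rich genes and all protein-coding genes. The member curve peaks at 78.7% downstream of the 5′ end, above the maxima of 44.8% and 24.9% in the other curves, and beyond 2 kb on either side the curves come close together.

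Motifs of factors known from respiratory promoters were searched on both strands in RefSeq promoters of 300 bases (250 before and 50 after the start), which were matched for 76 of the 94 members. The NRF1 letters GCGCANGCGC were found in 18 of 76 (23.7%), against 6.91% of all 16792 promoters of the same length and 12.4% of CpG-rich ones. The ETS letters CCGGAAG, bound by GABP, were found in 17 (22.4%), against 12.2% and 19.9%. The YY1 letters AAGATGGCG were found in 7 (9.21%), against 2.03% and 3.56%, and the ERR letters AAGGTCA in 8 (10.5%), against 3.87% and 2.39%. The SP1 letters GGGCGG were found in 35 (46.1%), against 48.1% and 71.9%. None of these letter strings contains another. NRF1, ETS or YY1 letters stood in 36 of 76 promoters (47.4%), against 19.2% and 32.1%, and among matched members they were in 32 of 66 with a promoter peak (48.5%) and in 4 of 10 without (40.0%). A match describes these letters only and does not show binding.

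Upstream matches are printed for 3 NRF1 and 2 ETS promoters as examples, chosen after the values were seen, with the match in capitals and 15 bases on either side where the sequence before the GENCODE start allowed. In complex II, Sdha at chr13:74350281-74350353 (minus strand) held 2 NRF1 matches in the stretch shown. In complex I, Ndufb4 at chr16:37654535-37654574 (minus strand) held 1, and in complex IV Cox6a1 at chr5:115349051-115349135 (minus strand) held 2. Both ETS examples are complex III genes, Uqcrh at chr4:116075072-116075095 (minus strand) and Uqcr11 at chr10:80406866-80406902 (minus strand). All 5 genes had a promoter peak, with widths of 1968, 1162, 1757, 1127 and 1810 bp in the same order.
Sdha: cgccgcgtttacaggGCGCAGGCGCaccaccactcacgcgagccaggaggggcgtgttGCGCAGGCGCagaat
Ndufb4: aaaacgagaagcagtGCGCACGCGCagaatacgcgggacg
Cox6a1: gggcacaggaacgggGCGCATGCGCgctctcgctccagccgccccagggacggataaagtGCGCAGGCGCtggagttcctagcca
Uqcrh: gaggagtatgccgcaCTTCCGGcc
Uqcr11: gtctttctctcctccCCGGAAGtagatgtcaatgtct

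Other genes that serve the chain, taken from a list of 65, had a promoter peak in 44 of 65 (67.7%, 55.6 to 77.8), against 33.9% of all protein-coding genes. This interval overlaps that of the members, and the difference was not tested. Of the 65 genes 54 were CpG-rich, and 39 of these (72.2%) had a promoter peak, against 57.6% of all CpG-rich genes. Coenzyme Q synthesis genes had one in 10 of 11, the exception being Coq8a. Assembly genes of complex III had one in 5 of 6, further complex I assembly genes in 6 of 7, and those of complex II and ATP synthase in 3 of 4 each. Complex IV assembly genes had one in 7 of 12, with none at Cox14, Cox19, Sco1, Sco2 and Surf1. Of the 6 electron carrier and cytochrome genes only Cyc1 (396 bp) and Etfb (747 bp) had a peak, and Cycs, which encodes the somatic cytochrome c, had none, nor had its testis form Cyct, Etfa or Etfdh. This share (33.3%, 9.68 to 70.0) is near that of all protein-coding genes. Among 9 regulators of respiratory gene transcription 4 (44.4%, 18.9 to 73.3, an interval that holds the 33.9% of all genes) had a promoter peak: Gabpa (2556 bp), Gabpb1 (3428 bp), Nrf1 (2655 bp) and Pprc1 (866 bp). Ppargc1a, Ppargc1b, Esrra, Gabpb2 and Yy1 had none, although Yy1 had the edge of a peak inside this distance. Of 6 genes for mitochondrial DNA expression, Tfam, Tfb1m, Tfb2m and Twnk had a promoter peak and Polg and Polrmt had none.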

How the data were processed

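ChIP-seq for H3K56ac was performed in V6.5 mESCs on feeder cells carrying a scrambled or a Sirt6 shRNA, with 2 ChIP libraries and 1 input library per group, grouped by sample titles. Single-end reads of 75 bases were trimmed with Trim Galore and aligned with bowtie to mm10, keeping uniquely placed reads, duplicates were removed with Picard, and peaks were called with MACS2, filtered for blacklisted regions and merged with GenomicRanges by the authors. The deposited values were positions, namely where each of the 11106 merged peaks started and ended. The score was 0 throughout, and no read counts were analysed here. The study states the depth of each library, which was not used here because the merged positions cannot be tied to libraries. Its sequencing summary gives a slightly longer read length than its methods. After merging, the library behind a peak is unknown, and unique placement leaves identical repeats uncovered.

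Positions are printed counted from 1. Starts were those of all GENCODE M21 transcripts. A promoter peak had its midpoint within 1 kb of a start, and CpG ratios were taken within 500 bp of the 5′ end with a limit of 0.6. Intervals are Wilson intervals at 95%. The uniqueness search was tested on simulated sequence. Promoter sequences were RefSeq entries on GRCm38.p6. The members and lists were chosen with earlier results of these data known. Genes named were all restricted isoforms with Ndufa4l2 and their partners, all members without a promoter peak, the widest and narrowest per complex, up to 2 members per complex with a divergent neighbour, the complex II genes and members with peaks over 3 kb. Any further gene was named after its values were seen, and some items are not reported here. Alternatives covered the distance limit, midpoint or edge, the start set, peak width, the exclusion of some members and sharing. Calculations used Python 3.11.15, numpy 2.4.6, pandas 2.3.3, numba 0.67.0 and matplotlib 3.10.9.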

Additional observations from a re-analysis of the deposited data

How the results depend on the processing

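Of 66 alternatives over 10 results, 64 stayed within the Wilson interval of a share or the quartiles of the widths, and 2 moved, both for the share of members with a promoter peak (84.0%). It was 72.3% when the midpoint had to lie within 500 bp of a start, where all protein-coding genes stood at 25.8%, and 90.7% without the restricted isoforms and Ndufa4l2, which is the removal of genes that mostly had no peak. The difference between common and restricted isoforms, with Ndufa4 counted but Ndufa4l2 left out, was 85.7 percentage points. It was lowest, at 71.4, with the midpoint within 500 bp. It was counted as not moved, although a difference has no Wilson interval of its own. Small groups have wide intervals, so staying inside them says little. The Ndufaf share fell from 100% to 75% with the midpoint within 500 bp and was counted as not moved. The median width was 1277 bp over member peaks shared with no other gene. Leaving out the second Atp5o record, a choice made after seeing the data, gave 84.9%. Leaving out single replicates and a stricter peak threshold were not run, since the merged positions carry neither libraries nor scores. No paired analysis was possible because each peak has a position and nothing measured per replicate. Library depth did not enter any value, and a missing peak cannot be told apart from a mark below the calling threshold.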
